A study of Homo sapiens with 12 samples.

Results

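The transcripts described are those of MPO, ELANE, PRTN3, AZU1, CTSG and PRSS57, the peroxidase and the serine protease family of the azurophilic (primary) granule. They were taken by symbol and are 6 of the 26364 genes counted. All 6 were among the 12671 genes with enough reads to be tested. RNA came from HL-60, an established human promyelocytic leukemia line, cultured in medium with serum and treated with 1 µM all-trans retinoic acid (ATRA), which drives it towards neutrophils. The 12 libraries form 4 groups of 3 replicates: untreated cells (0 h) and those given ATRA for 4 h, 2 d or 4 d. The labels do not say whether replicates were separate cultures, so p-values measure the spread between these libraries, which may be technical. Untreated cells kept in culture for 2 d or 4 d were not analysed here, so time in culture and ATRA cannot be told apart. HL-60 is a single leukemic line.

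Azurophilic granules are formed at the promyelocyte stage, and the genes for their contents are known to be switched off as neutrophil precursors mature, while the stored proteins persist. MPO is a heme peroxidase that makes hypochlorous acid from hydrogen peroxide and chloride. ELANE encodes neutrophil elastase, PRTN3 proteinase 3, CTSG cathepsin G and PRSS57 neutrophil serine protease 4. AZU1 encodes azurocidin, a protease homolog that has lost its catalytic activity and is antimicrobial. The active proteases are made as zymogens, which cathepsin C trims before they are packed on serglycin.

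AZU1, PRTN3 and ELANE lie side by side on chromosome 19, PRSS57 lies nearby on the same chromosome, CTSG on chromosome 14 and MPO on chromosome 17. RefSeq promoter sequences (GRCh38.p14) were matched for 4 of the 6 genes and are shown because these genes changed together without keeping their proportions. Each runs 5′ to 3′ on the gene's strand, from 180 bases before the start site to 20 bases from it on. Capitals mark matches on either strand to TTNNGNAA (C/EBP), GAGGAA (PU.1), CAACNG or TAACNG (MYB) and TGTGGT (RUNX). These are short letter patterns of factor families known at myeloid promoters. The intervals are chr19:840819-841018 (PRTN3, plus strand), chr19:827657-827856 (AZU1, plus strand), chr14:24576231-24576430 (CTSG, minus strand) and chr19:695433-695632 (PRSS57, minus strand).
PRTN3: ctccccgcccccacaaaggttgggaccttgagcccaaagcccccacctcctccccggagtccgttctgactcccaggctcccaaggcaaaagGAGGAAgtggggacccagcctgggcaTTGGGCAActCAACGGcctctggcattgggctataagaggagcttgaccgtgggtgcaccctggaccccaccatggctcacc
AZU1: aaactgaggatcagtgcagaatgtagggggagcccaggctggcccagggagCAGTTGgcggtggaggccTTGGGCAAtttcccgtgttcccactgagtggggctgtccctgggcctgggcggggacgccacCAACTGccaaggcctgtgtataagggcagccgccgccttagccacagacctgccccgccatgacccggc
CTSG: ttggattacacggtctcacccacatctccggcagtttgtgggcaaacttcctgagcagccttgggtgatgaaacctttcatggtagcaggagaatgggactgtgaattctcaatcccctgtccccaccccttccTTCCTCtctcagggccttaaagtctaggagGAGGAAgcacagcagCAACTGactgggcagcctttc
PRSS57: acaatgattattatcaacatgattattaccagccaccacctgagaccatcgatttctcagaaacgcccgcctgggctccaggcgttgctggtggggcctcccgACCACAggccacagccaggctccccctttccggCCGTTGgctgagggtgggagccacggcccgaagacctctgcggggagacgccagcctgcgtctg

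The C/EBP pattern was present in PRTN3 and AZU1, the MYB pattern in all 4 promoters shown, the PU.1 pattern in PRTN3 and CTSG, and the RUNX pattern in PRSS57. In PRTN3 the C/EBP match began at -62 and the MYB match at -52, counted from the start site. In AZU1 the C/EBP match began at -111 and the MYB matches at -49 and -129. Of 35116 RefSeq promoters cut to the same 200 bases, 26.1% held the C/EBP pattern, 34.0% the MYB pattern, 19.4% the PU.1 pattern and 8.7% the RUNX pattern. No 2 of the patterns overlapped in these windows. A match describes letters only.

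Reads in genes ran from 7866757 to 13658177 per library, and the 6 genes had between 61 and 593696 reads each per library. In 3 libraries (replicate 2 of 0 h, replicate 3 of 4 h and replicate 1 of 4 d) GC-rich transcripts stood higher than in the other libraries of their group. Their slopes were 0.48, 0.36 and 0.31 log2 units per 10 points of GC, against -0.35 to 0.06 in the other libraries. ELANE, PRTN3, AZU1 and PRSS57 transcripts have a GC content of 66.1% to 67.7%, MPO 58.5% and CTSG 57.2%, against a median of 49.2% over matched genes. In 4 h replicate 1, 22265 genes had a read, against 15198 to 15798 in the others. Summed markers of maturing granulocytes ran from 1062 to 1636 CPM at 0 h and from 4631 to 6034 at 4 d, where CPM is a gene's count per unit of library size, set by the library's gene reads and their trimmed mean of M values (TMM). Summed markers of promyelocytes, all 7 with reads at 0 h, ran from 1869 to 1967 CPM at 0 h and from 1062 to 1082 at 4 d. Of the 6 tested promyelocyte markers 3 were called lower and 1 higher at 4 d by edgeR, beside 29.7% and 28.1% of all tested genes. CEBPA made up most of the sum's decline (1019 to 392 CPM), while CD33 rose (0.56 ± 0.14, adjusted p = 0.00473) and GFI1 (0.3 ± 0.17, adjusted p = 0.139) and KIT (0.12 ± 0.21, adjusted p = 0.654) were not called.

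MPO was the most abundant of all transcripts by CPM at 0 h, 4 h and 2 d, and ranked 5 at 4 d. Its level at 0 h was 23325, 24619 and 36060 CPM in replicates 1, 2 and 3. At 4 h it was 31983, 36094 and 50330 CPM, at 2 d 32922, 29209 and 24801 CPM, and at 4 d 6946, 8808 and 8624 CPM. The first 3 times overlapped, and all 4 d libraries lay below every other library.

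ELANE stood at 1704, 3710 and 2011 CPM at 0 h and at 1632, 2039 and 3416 CPM at 4 h. At 2 d it was 490.4, 410.7 and 483 CPM, and at 4 d 111, 76.24 and 85.28 CPM. The 2 d and 4 d libraries each lay wholly below those of the time before, while 0 h and 4 h overlapped. The high 0 h and 4 h values are from the libraries in which GC-rich transcripts stood high.

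PRTN3 was the most abundant protease transcript in the mean at 0 h, 4 h and 2 d. It stood at 3352, 6604 and 3614 CPM at 0 h, 4552, 6209 and 10489 at 4 h, 2665, 2056 and 2587 at 2 d, and 417.2, 279.6 and 335.1 at 4 d. All 2 d libraries lay below all 0 h and 4 h libraries, and the 4 d libraries lower again.

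AZU1 stood at 1622, 3622 and 1527 CPM at 0 h and at 782.7, 1012 and 1682 CPM at 4 h. It was 905.7, 955.3 and 1108 CPM at 2 d, and 658.2, 323.1 and 382 CPM at 4 d. The 4 h libraries overlapped both neighbouring times, and all 4 d libraries lay below those of every other time. Azurocidin's transcript had the shallowest decline of the protease family by 4 d, and its highest 4 d value is from the 4 d library rich in GC.

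CTSG stood at 518.4, 455.7 and 535.4 CPM at 0 h and at 540.5, 635 and 879.1 CPM at 4 h, so that every 4 h library lay above every 0 h library. It was 116.4, 125.7 and 111.1 CPM at 2 d, and 16.73, 18.64 and 22.47 CPM at 4 d. The replicate spread of CTSG at 0 h, an SD of 41.9 CPM around 503, was small beside that of the GC-rich genes (ELANE 2475 ± 1080).

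PRSS57, the least abundant of the 6 at every time, stood at 183.5, 325.8 and 182.5 CPM at 0 h and at 120.4, 138.3 and 247.5 at 4 h. It was 41.18, 33.52 and 37.8 CPM at 2 d, and 9.04, 6.048 and 7.056 CPM at 4 d. Times from 2 d on did not overlap with each other or with the earlier ones.

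**Figure D1:**
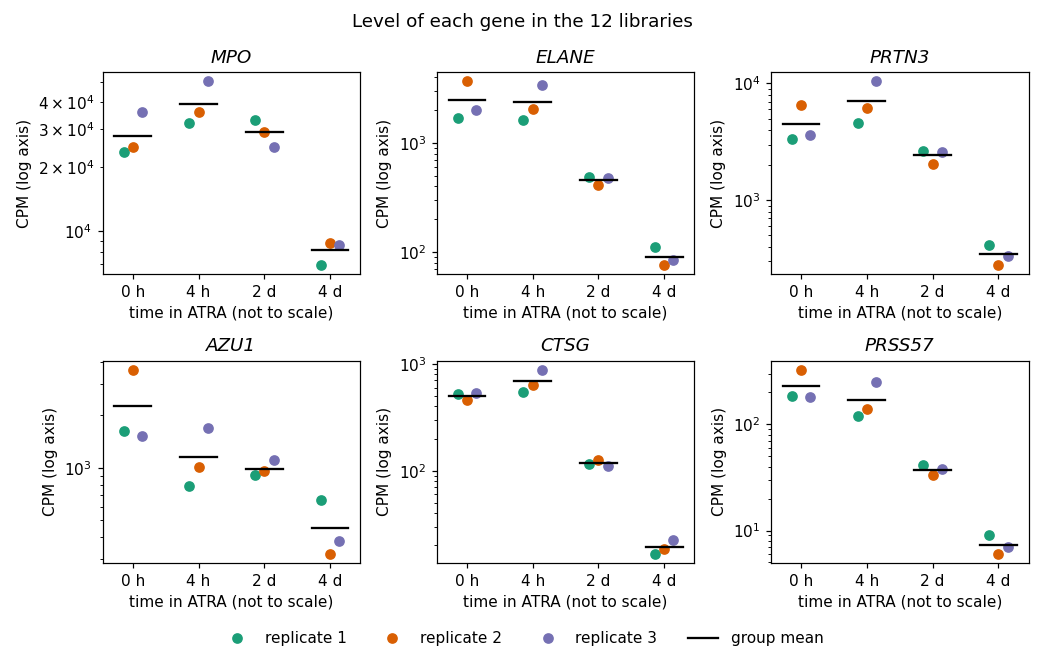
Level of each gene (CPM, log axis, range set per panel) at 0 h, 4 h, 2 d and 4 d of ATRA. Points are single libraries colored by replicate number and bars are group means. All 4 d libraries lie below all libraries of the other times in each panel, and MPO at 2 d (24801 to 32922 CPM) overlaps 0 h. The share of all tested genes with such a separation was not counted, and edgeR called 29.7% of them lower at 4 d against 0 h.

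Levels of different genes can be compared per kilobase of transcript. On that scale (RPKM, means of 3 libraries) MPO stood at 8710 at 0 h, PRTN3 at 4409, ELANE at 2690, AZU1 at 2486, CTSG at 568 and PRSS57 at 212. PRTN3 and ELANE overlapped in their libraries at 0 h, as did ELANE and AZU1. Within each 0 h library PRTN3 stood above ELANE and ELANE above AZU1. By 4 d the order was MPO 2528, AZU1 500, PRTN3 335, ELANE 98.7, CTSG 21.8 and PRSS57 6.77 RPKM. AZU1 thus passed both PRTN3 and ELANE in the order of means. Across libraries AZU1 and PRTN3 still overlapped, while within each 4 d library AZU1 stood above PRTN3 (725 over 407, 356 over 272 and 421 over 327 RPKM).

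At 4 h, the comparison that asks for early changes, no call was made for any of the 6 genes by the quasi-likelihood test of edgeR (adjusted p under 0.05, Benjamini-Hochberg over all tested genes). DESeq2 and limma-voom also called 0 of 6, and 3 of the 6, MPO, AZU1 and CTSG, had an unadjusted p under 0.05 in edgeR. Over all genes 4.23% were called lower and 2.00% higher. AZU1 had a log2 fold change of -0.96 ± 0.37 (SE, adjusted p = 0.133) and PRTN3 one of 0.65 ± 0.31 (adjusted p = 0.212). CTSG had 0.44 ± 0.19 (adjusted p = 0.167), MPO 0.50 ± 0.22 (adjusted p = 0.174), PRSS57 -0.45 ± 0.28 (adjusted p = 0.315) and ELANE -0.07 ± 0.31 (adjusted p = 0.902). Several of these values or calls change with the 3 libraries that stand apart in GC. Without them MPO was at 0.20 (adjusted p = 0.452), CTSG at 0.16 (adjusted p = 0.378) and ELANE at -0.02 (adjusted p = 0.951). PRTN3 kept its size and was called higher (0.63, adjusted p = 0.0106), and AZU1 (-0.81, adjusted p = 0.000958) and PRSS57 (-0.50, adjusted p = 0.00591) were called lower. That run had smaller groups, lacking 0 h replicate 2 and 4 h replicate 3. It kept 4 h replicate 1, in which 22265 genes had a read. With offsets for GC content and length PRTN3 was at 1.17 (adjusted p = 2.76e-05), CTSG at 0.66 (adjusted p = 0.0196), ELANE at 0.53 (adjusted p = 0.00887) and AZU1 at -0.30 (adjusted p = 0.037). MPO was at 0.61 (adjusted p = 0.0632) and PRSS57 at 0.12 (adjusted p = 0.516) with the offsets.

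At 2 d, ELANE, PRTN3, AZU1, CTSG and PRSS57 had fallen against 0 h and MPO was not called. The 5 of 6 called lower and 0 of 6 called higher compare with 18.7% and 16.9% of all tested genes. PRSS57 changed by -2.62 ± 0.30, ELANE by -2.42 ± 0.32 and CTSG by -2.1 ± 0.20 on the log2 scale (edgeR, adjusted p = 2.55e-05, 8.54e-05 and 4.63e-06). AZU1 changed by -1.19 ± 0.37 (adjusted p = 0.0232) and PRTN3 by -0.89 ± 0.31 (adjusted p = 0.0397). MPO was at 0.05 ± 0.21 (adjusted p = 0.877), with a 95% interval from -0.41 to 0.51. Without 0 h replicate 2, PRTN3 was at -0.52 (adjusted p = 0.156) and AZU1 at -0.67 (adjusted p = 0.103), so both calls were lost, while ELANE, CTSG and PRSS57 stayed called in each alternative run. PRTN3 was also not called without any one of the 2 d replicates (-0.96, adjusted p = 0.0804, without replicate 1), 4 h replicate 2 (adjusted p = 0.0523) or 4 d replicate 3 (adjusted p = 0.0536), nor AZU1 without 2 d replicate 1 (adjusted p = 0.0828) or 2 (adjusted p = 0.065). With offsets for GC content and length PRTN3 was at -0.31 (adjusted p = 0.0367) and AZU1 at -0.46 (adjusted p = 0.000684).

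From 4 h to 2 d, CTSG, ELANE, PRSS57 and PRTN3 fell, with changes of -2.54 ± 0.20, -2.36 ± 0.32, -2.17 ± 0.30 and -1.54 ± 0.32 on the log2 scale (edgeR, adjusted p = 1.26e-06, 0.000105, 0.000105 and 0.00217). Over all genes 18.0% were called lower and 16.5% higher, against 4 and 0 of the 6. MPO was at -0.45 ± 0.22 (adjusted p = 0.128) and AZU1 at -0.23 ± 0.36 (adjusted p = 0.67). With offsets for GC content and length MPO passed the threshold (-0.67, adjusted p = 0.0135).

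From 2 d to 4 d, all 6 genes fell, beside 13.5% of tested genes called lower and 13.1% higher. The changes were -2.82 ± 0.33 for PRTN3, -2.61 ± 0.20 for CTSG, -2.34 ± 0.32 for ELANE, -2.34 ± 0.31 for PRSS57, -1.83 ± 0.22 for MPO and -1.12 ± 0.37 for AZU1 on the log2 scale. Their adjusted p-values in edgeR were 7.88e-05, 5.8e-06, 0.000232, 0.000187, 9.43e-05 and 0.0381. Only 18 of the 12671 tested genes had a lower log2 fold change over this step than PRTN3, 26 than CTSG, 42 than ELANE, 43 than PRSS57, 114 than MPO and 542 than AZU1. The AZU1 call was lost without any one of the 2 d replicates (-1.04, adjusted p = 0.0993, without replicate 3) and without 4 d replicate 2 (-0.91, adjusted p = 0.135) or 3 (-1.02, adjusted p = 0.119).

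At 4 d against 0 h, all 6 genes had fallen, when 29.7% of tested genes were called lower and 28.1% higher. PRSS57 was 31.2-fold lower (log2 -4.97 ± 0.34, adjusted p = 7.96e-08), ELANE 27.3-fold lower (-4.77 ± 0.36, adjusted p = 1.77e-07) and CTSG 26.1-fold lower (-4.70 ± 0.22, adjusted p = 3.47e-09) by edgeR's test. PRTN3 was 13.2-fold lower (-3.72 ± 0.35, adjusted p = 1.16e-06), AZU1 4.97-fold lower (-2.31 ± 0.38, adjusted p = 0.000175) and MPO 3.45-fold lower (-1.78 ± 0.22, adjusted p = 1.51e-05). The median of the 6 was -4.21, against 0 over all tested genes. Each of the 6 was called at 4 d in every alternative run. The sizes moved with the GC and length offsets: PRSS57 was then 21-fold lower, CTSG 18.5-fold, ELANE 16.9-fold, PRTN3 8.75-fold, MPO 3.92-fold and AZU1 3.05-fold, so that the order of MPO and AZU1 turned. In bulk RNA, fewer cells with a transcript and less of it per cell cannot be told apart. Over all 4 times, edgeR's F-test called all 6, as it did 63.2% of tested genes, with adjusted p from 3.45e-09 (CTSG) to 0.000977 (AZU1). Of the 3 consecutive steps, MPO and AZU1 were called lower in the last. With the GC and length offsets MPO was also called lower from 4 h to 2 d. ELANE, PRTN3, CTSG and PRSS57 were each called lower in both steps after 4 h.

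**Figure D2:**
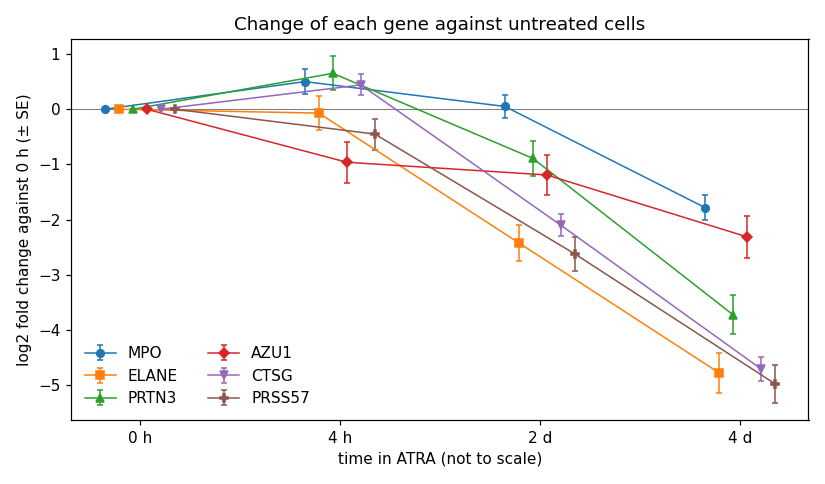
Log2 fold change of each gene against 0 h (± SE from the fit to all 12 libraries) at 4 h, 2 d and 4 d, with 0 h set at 0 and times evenly spaced. ELANE, CTSG and PRSS57 lie between -2.62 and -2.1 at 2 d and MPO at 0.05, and at 4 d MPO (-1.78) and AZU1 (-2.31) lie above the other genes.

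Ratios between 2 genes within a library do not depend on the scaling of libraries. Where the GC content or length of the 2 genes differs, they still carry the libraries' differences in these. All 15 pairs were tested over the 4 times by an exact permutation F test on log2 ratios, with Benjamini-Hochberg adjustment over the 15. Of these pairs 12 of 15 differed between times. The pairs share genes and are not independent. The share of called pairs among other tested genes was not counted, and edgeR's F-test called 63.2% of single tested genes over the 4 times. The smallest p that the permutation test can give over the 4 times is 6.49e-05. For 3 libraries against 3 an exact test cannot go below 0.10, so steps between single times are given as values.

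ELANE and PRTN3 are adjacent genes of like GC content, and the ratio of their reads was nearly fixed within a time. ELANE over PRTN3 was 0.508, 0.562 and 0.556 at 0 h, 0.359, 0.328 and 0.326 at 4 h, 0.184, 0.2 and 0.187 at 2 d, and 0.266, 0.273 and 0.255 at 4 d. The 4 times did not overlap, the SD within a time was 0.05 to 0.08 log2 units, and the exact permutation p was 6.49e-05, the smallest possible (adjusted p = 0.000244). The ratio was lower at 4 h than at 0 h, lowest at 2 d and between those of 2 d and 4 h at 4 d.

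PRTN3 over AZU1 was 2.07, 1.82 and 2.37 at 0 h, and 5.82, 6.13 and 6.23 at 4 h. It was 2.94, 2.15 and 2.33 at 2 d, and 0.634, 0.865 and 0.877 at 4 d (exact permutation test, adjusted p = 0.000487). These are also near neighbours on the chromosome, and their ratio stood highest at 4 h and lowest, below 1, at 4 d. ELANE over AZU1 averaged 1.12, 2.04, 0.466 and 0.207 at the 4 times in order (exact permutation test, adjusted p = 0.000244).

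ELANE over PRSS57 averaged 10.5, 14, 12.3 and 12.2 over the 4 times in order, a narrow range beside the 27.3-fold and 31.2-fold declines of these genes. It still differed between times (exact permutation test, adjusted p = 0.000974), the 0 h libraries at 9.29 to 11.4 lying below the others. ELANE over CTSG averaged 4.65, 3.35, 3.91 and 4.68, and CTSG over PRSS57 2.26, 4.18, 3.14 and 2.62. Neither passed the exact permutation test (adjusted p = 0.508 and 0.128), and both pair a GC-rich gene with CTSG, with an SD at 0 h of 0.71 and 0.60 log2 units.

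By 4 d MPO had gained on each of the active protease genes. MPO over CTSG, the pair with the lowest GC content, averaged 54.7, 57.7, 245 and 421 (exact permutation test, adjusted p = 0.000852). Its libraries overlapped at 0 h and 4 h (45 to 67.4 and 56.8 to 59.2) and did not overlap with either from 2 d on. MPO over ELANE averaged 11.8 at 0 h and 90.1 at 4 d (exact permutation test, adjusted p = 0.00166), and MPO over PRSS57 124 and 1103 (exact permutation test, adjusted p = 0.000557). MPO over PRTN3 averaged 6.37 at 0 h and 23.8 at 4 d (exact permutation test, adjusted p = 0.00336). MPO over AZU1 was not called (13.2, 35.2, 29.2 and 18.7 in order, adjusted p = 0.0784 by the exact permutation test). With curves for GC content and length taken out of each library, the log2 change from 0 h to 4 d was 2.11 for MPO over ELANE (2.94 without), 2.33 over PRSS57 (3.16), 2.22 over CTSG (2.94) and 1.17 over PRTN3 (1.90), all 4 still called. For MPO over AZU1 it turned to -0.35 (0.50 without), and that pair was then called over the 4 times (exact permutation test, adjusted p = 0.00891). CTSG over PRSS57 was then also called (exact permutation test, adjusted p = 0.0015), with log2 changes from 0 h of 0.55 at 4 h and 0.10 at 4 d. AZU1 over CTSG (4.14 to 22.6 from 0 h to 4 d, adjusted p = 0.000487), AZU1 over PRSS57 (9.37 to 59.1, adjusted p = 0.000244), PRTN3 over PRSS57 (19.4 to 46.3, adjusted p = 0.000244) and PRTN3 over CTSG (8.58 to 17.7, adjusted p = 0.0302) were called by the exact permutation test.

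**Figure D3:**
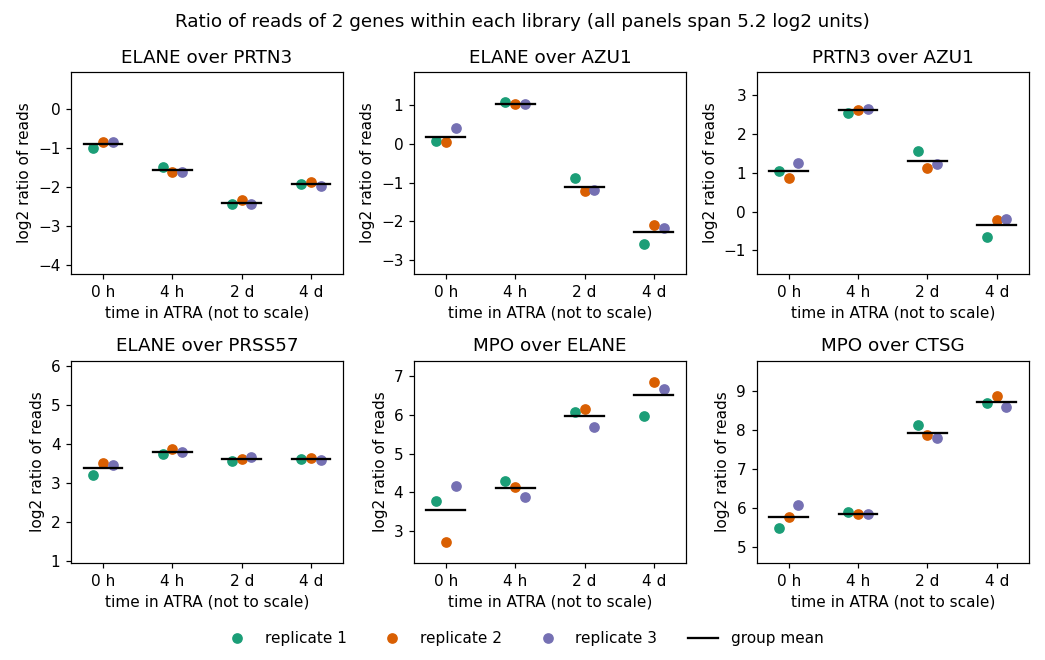
Log2 ratio of the reads of 2 genes in each library for 6 of the 15 pairs. Points are libraries, bars are group means and each panel spans the same height. ELANE over PRTN3 separates the 4 times with an SD of 0.05 to 0.08, and ELANE over PRSS57 stays between 3.22 and 3.88.

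Together the 6 genes took 3.69% ± 0.672 of gene reads at 0 h and 4.94% ± 0.759 at 4 h, then 3.36% ± 0.373 and 0.926% ± 0.14 at 2 d and 4 d (SD, n = 3; exact permutation F test on log2 shares, p = 0.00123). The 5 genes without MPO took 0.957% ± 0.332 at 0 h and 0.0922% ± 0.0195 at 4 d. Among the reads of those 5, AZU1 made up 22% ± 2.6 at 0 h and 10.1% ± 0.106 at 4 h, then 24.6% ± 2.75 and 48.7% ± 4.84 at 2 d and 4 d. PRTN3 made up 45.4%, 61.4%, 60.1% and 38.1% in the same order, and ELANE 24.6%, 20.7%, 11.4% and 10.1%. So the catalytically inactive azurocidin had the largest mean share among these 5 transcripts at 4 d. Intervals over libraries are SDs and cover 3 libraries only.

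**Figure D4:**
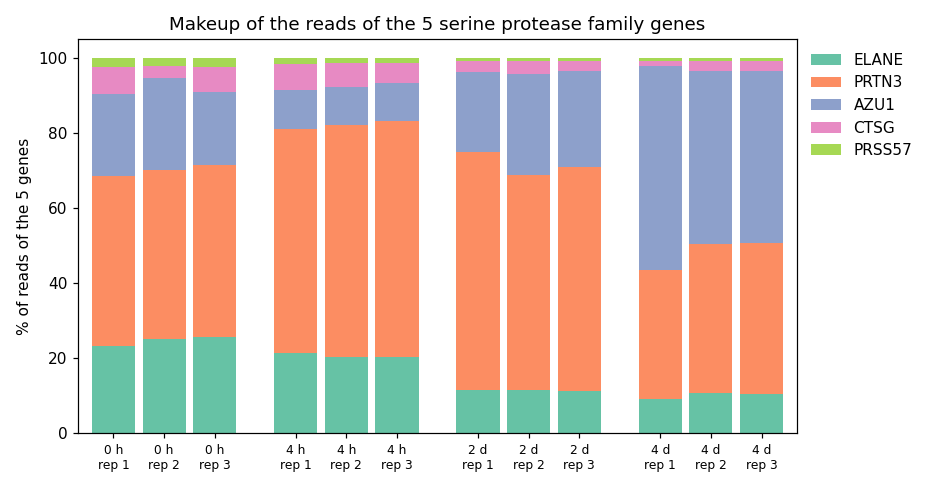
Share of each gene (percent, stacked) in the reads of ELANE, PRTN3, AZU1, CTSG and PRSS57 in each of the 12 libraries. AZU1 holds 10.1% to 10.3% at 4 h and 45.9% to 54.3% at 4 d, and ELANE falls from 23.1% to 25.6% at 0 h to 9.15% to 10.8% at 4 d.

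The genes beside the cluster on chromosome 19 did not all change with it. CFD, which encodes complement factor D and follows ELANE, stood at 319 CPM at 0 h and 291 at 4 d, a log2 fold change of -0.13 ± 0.25 (edgeR, adjusted p = 0.673). MED16, a Mediator subunit, was at -0.41 ± 0.3 (adjusted p = 0.262) and R3HDM4 at 0.01 ± 0.22 (adjusted p = 0.978). On the other side LPPR3 fell by 2.19 ± 0.35 (edgeR, adjusted p = 0.000142), from 709 to 155 CPM, beside -2.31 for the adjacent AZU1, and PTBP1, a splicing regulator, changed by -0.68 ± 0.15 (adjusted p = 0.00159). Next to PRSS57, FSTL3 fell by 1.30 ± 0.39 (edgeR, adjusted p = 0.0115). PALM fell by 2.03 ± 0.53 (adjusted p = 0.00523), to 0.475 CPM at 4 d. RNF126 changed by -0.76 ± 0.25 (edgeR, adjusted p = 0.0192), and POLRMT was not called (-0.7 ± 0.37, adjusted p = 0.119). Near MPO on chromosome 17 lie 2 further heme peroxidase genes: LPO fell by 1.89 ± 0.24 (edgeR, adjusted p = 2e-05) and EPX, eosinophil peroxidase, changed by -2.21 ± 0.25 (adjusted p = 5.71e-06). EPX had already fallen by 1.77 ± 0.24 at 4 h (edgeR, adjusted p = 0.000867), when MPO was not called. Among the other tested neighbours of MPO, MKS1 changed by -0.83 ± 0.15 at 4 d (edgeR, adjusted p = 0.000333). Not called at 4 d were BZRAP1 (-0.66 ± 0.29, adjusted p = 0.0658), BZRAP1-AS1 (-0.86 ± 0.39, adjusted p = 0.0748) and MIR142 (-0.54 ± 0.37, adjusted p = 0.237). Of the 6 nearest tested genes around CTSG, COCH fell by 3.86 ± 0.32 at 4 d (edgeR, adjusted p = 3.75e-07) and was at -2.25 at 2 d (adjusted p = 4.41e-05), and CBLN3 rose by 3.05 ± 0.53 (adjusted p = 0.000245). The other 4, among them G2E3 (0.31 ± 0.21, adjusted p = 0.227) and SDR39U1 (0.09 ± 0.23, adjusted p = 0.772), were not called at 4 d. Untested genes may lie between CTSG and these genes, and the distances are not given, so they need not be close to it. The strand setting of the counting is not given, so reads of overlapping genes on opposite strands cannot be told apart.

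**Figure D5:**
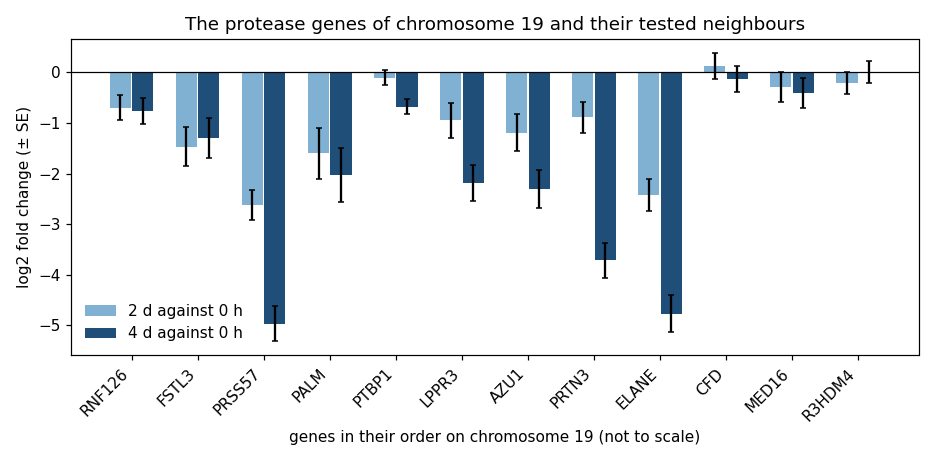
Log2 fold change against 0 h (bars from 0, ± SE) at 2 d and 4 d for the protease genes of chromosome 19 and tested neighbours in gene order, distances not drawn. ELANE reaches -4.77 and CFD beside it -0.13 at 4 d.

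Counts for gene lists at 4 d are to be read beside the 29.7% of all tested genes called lower and the 28.1% called higher. Among other contents of the azurophilic granule, 11 of 16 tested members rose and 2 fell at 4 d, with a median of 0.84 against 0 over all genes. CTSD, the aspartic protease cathepsin D, rose from 1068 ± 266 to 21367 ± 2211 CPM (log2 4.32 ± 0.29, edgeR adjusted p = 6.67e-08). FUCA1, a lysosomal fucosidase, rose by 3.19 ± 0.18 and CD68, a lysosomal membrane glycoprotein, by 2.51 ± 0.21 (adjusted p = 1.62e-08 and 4.55e-07). LYZ, lysozyme, fell by 2.63 ± 0.25 (edgeR, adjusted p = 1.44e-06). At 2 d the list had 10 higher and 2 lower, beside 16.9% and 18.7% of all tested genes. At 4 h it had 0 in either direction, when 2.00% of all tested genes were called higher and 4.23% lower. DEFA1, DEFA1B and DEFA3, near-identical defensin copies, had 0 reads in every library, and reads with several alignments were not assigned to genes. Many of the risen members are general lysosomal proteins, which other cells also make.

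Of 10 genes for zymogen activation, packing and granule sorting, 2 rose and 3 fell at 4 d (median 0.17), shares near those over all tested genes. LYST, the lysosomal trafficking regulator, rose by 1.15 ± 0.2 and VPS45 by 0.77 ± 0.15, while SRGN, the serglycin core protein, and HAX1 fell, with changes of -1.01 ± 0.3 and -0.83 ± 0.21 on the log2 scale (edgeR, adjusted p = 0.000223, 0.000708, 0.0116 and 0.0035). CTSC, the activating protease, stood at 197 ± 47.5 CPM at 0 h and 265 ± 37.1 at 4 d (0.42 ± 0.19, edgeR adjusted p = 0.0687). CTSC was named after its values were seen, because of its role.

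Of 12 genes for MPO folding and heme synthesis, 7 fell and 3 rose at 4 d (median -0.58; 29.7% and 28.1% over all genes). CALR, the chaperone calreticulin, fell by 2.80 ± 0.25, from 3321 to 476 CPM, and PDIA3, a thiol oxidoreductase, changed by -1.28 ± 0.17 (edgeR, adjusted p = 8.65e-07 and 2.67e-05). The heme synthesis gene UROD changed by -1.05 ± 0.18 (edgeR, adjusted p = 0.000191). The 3 that rose, also of heme synthesis and named after their values were seen, were ALAD (0.72 ± 0.13), ALAS1 (0.64 ± 0.14) and FECH, ferrochelatase (0.59 ± 0.18; edgeR, adjusted p = 0.000284, 0.00142 and 0.0122). At 4 h 2 of the 12 had risen and 0 had fallen, beside 2.00% and 4.23% of all tested genes. The 2 were HSPA5, an endoplasmic reticulum chaperone (0.91 ± 0.18), and FECH (0.80 ± 0.18; edgeR, adjusted p = 0.0101 and 0.0184).

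Of 7 tested inhibitor genes, 5 fell and 1 rose at 4 d (median -1), against 29.7% and 28.1% of all tested genes. CST7, cystatin F, an inhibitor of cathepsin C, fell from 578 ± 56.9 to 18.3 ± 1.2 CPM (log2 -4.98 ± 0.2, edgeR adjusted p = 8.98e-10), beside -4.97 for PRSS57. SLPI, the secretory leukocyte protease inhibitor, changed by -2.91 ± 0.23, SERPINB10 by -1.16 ± 0.31 and SERPINA1, alpha-1 antitrypsin, by -1 ± 0.16 (edgeR, adjusted p = 2.67e-07, 0.00551 and 0.000147). The gene that rose was SERPINB1, the intracellular inhibitor of elastase, cathepsin G and proteinase 3, from 167 ± 24.4 to 301 ± 14.3 CPM (0.85 ± 0.15, edgeR adjusted p = 0.000265). It was named after its value was seen.

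Of 10 tested transcription factor genes known at these promoters, 4 rose and 2 fell at 4 d (median 0.31), where 28.1% and 29.7% of all tested genes did. CEBPB rose by 2.20 ± 0.23 and was the 1 member called at 4 h (1.00 ± 0.22, edgeR adjusted p = 0.0184). At 4 h 2.00% of all tested genes were called higher and 4.23% lower. CEBPD rose by 1.13 ± 0.39 at 4 d (edgeR, adjusted p = 0.0232). MYB and CEBPA fell, with changes of -1.72 ± 0.14 and -1.38 ± 0.22 (edgeR, adjusted p = 3.36e-07 and 0.000125). Among substrates, partners and receptors, 3 of 5 tested members rose and 0 fell at 4 d. They were ITGAM (2.88 ± 0.15) and ITGB2 (2.34 ± 0.2), the chains of the integrin Mac-1, and GRN, progranulin (2.03 ± 0.24; edgeR, adjusted p = 6.89e-09, 5.77e-07 and 1.07e-05). CD177, the surface partner of proteinase 3, was at 0.0346 CPM or less in the mean at 0 h and 4 d and was not tested.

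Secondary and tertiary granule genes did not move as 1 group: at 4 d 5 of 11 tested members rose and 3 fell (median 0.25; 28.1% and 29.7% over all genes), and at 4 h 4 fell (4.23% over all genes). ORM1, orosomucoid, rose by 3.37 ± 0.3, and OLFM4 by 2.05 ± 0.32 from 1.59 CPM, while LTF, lactoferrin, fell by 2.93 ± 0.24 from 18 to 2.34 CPM (edgeR, adjusted p = 7.16e-07, 9.67e-05 and 4.24e-07). ORM1 has a near-identical copy, ORM2, so its reads are uncertain. LCN2 was called lower on very few reads (0.801 CPM at 0 h and 0.0911 at 4 d).

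Of the related proteases and peroxidases, 3 of 13 were tested, and LPO and EPX, described above, were called lower. Of the other cell types, summed eosinophil and basophil markers (6 genes) ran from 5332 to 7961 CPM at 0 h and from 484 to 518 at 4 d. By edgeR's test 5 of these 6 genes were lower at 4 d and 1 was higher. PRG2 made up most of the sum (5817 CPM at 0 h, 228 at 4 d), and CLC rose from 123 to 188 CPM (0.62 ± 0.17, adjusted p = 0.00718). Monocyte markers (6 genes) ran from 64.4 to 67.9 CPM at 0 h and from 109 to 133 at 4 d, with 2 of them, VCAN and CD163, at 0 reads at 4 d. Erythroid markers stayed at or below 7.64 CPM, with HBA1 and HBB at 0 reads at 0 h and 4 d. Lymphoid markers ran from 62.9 to 85 CPM at 0 h and from 56 to 67.6 at 4 d, and megakaryocyte markers from 15.4 to 27.4 and from 4.57 to 6.25. Their part in the changes of the 6 genes was not tested.

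The courses of the 6 genes were compared with those of 8661 genes by Pearson's r of log2 levels over the 12 libraries, as a description. They averaged at least 10 CPM, and neither the 6 genes themselves nor symbols of uncharacterised loci and of noncoding or small RNA (prefixes RNA5, RNU, SNOR, MIR, LINC and LOC) were among them. The points share libraries, depth, GC content and the time course, so that many genes that fell late have a high r. Closest to the mean course of the 6 were MYBL2, a cell cycle transcription factor (r = 0.998, 379 CPM at 0 h and 92.3 at 4 d), LRP3 (0.994), CDC45, a replication factor (0.993), SLC43A1 (0.992) and CDK4, a G1 kinase (0.991). For MPO the closest were CHAF1B (0.988), CDCA5 (0.987) and MCM2 (0.986), with products known in chromatin assembly, sister chromatid cohesion and replication. For ELANE they were SLCO4A1 (0.997), PFAS (0.996) and POLD2 (0.995), and for PRSS57 POLD2 (0.997), PFAS (0.996) and ACOT7 (0.996). CTSG was closest to RAN (0.998), SSRP1 (0.997) and MLC1 (0.995). PRTN3 was closest to MYBL2 (0.986), CDC45 (0.983) and ALDH4A1 (0.978), and AZU1 to C16orf59 (0.993), BDH1 (0.991) and TRAF2 (0.984). Among the 6 themselves r was highest for ELANE and PRSS57 (0.996) and lowest for MPO and AZU1 (0.659).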

How the data were processed

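The authors deposited raw counts of reads for each gene, 1 file per library. Per the submitters' processing notes, the authors used FastQC, Trim Galore 0.6.7, HISAT2 2.1.0 with hg19, and HTSeq 1.99.2. No source used here gives the annotation or strand setting. Reads outside genes were 13.97% to 28.15% of a library and stayed out of library sizes.

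The analysis used edgeR 4.0.16 in R 4.3.3: filterByExpr (12671 genes), TMM factors (0.864 to 1.098) and 1 quasi-likelihood model over 12 libraries with 8 residual degrees of freedom. SEs come from the fold change and its F statistic. Ratios used reads plus 0.5 and 369600 label arrangements (scipy 1.17.1). RPKM, GC content and length used GENCODE 29 transcripts of GRCh38 matched by symbol (24466 genes, 92.8%), since the files' build is hg19. No hg19 coordinates are given. The scripts were tested on simulated data.

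The 6 genes and the lists were chosen with earlier results of these data known. Of each list, up to 4 called genes are named in order of their change at 4 d, except where a gene is not reported here. Likeness took the 3 genes of highest r per gene (5 for the mean course), at a pseudocount of 0.5 CPM, and neighbours the 3 nearest tested genes a side. Alternatives were RLE factors, library totals, 20 abundant genes left out of the scaling, DESeq2 1.42.0, limma-voom (limma 3.58.1), other filters, 6-library fits, a replicate block, GC and length offsets, 3 libraries left out, stricter thresholds and each library left out.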

Additional observations from a re-analysis of the deposited data

How the results depend on the processing

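All 156 values of the 6 genes at 4 d against 0 h under the alternatives kept direction and call, though not size with the GC and length offsets (AZU1 -1.61, ELANE -4.08), and the count of called ratio pairs ran from 11 to 14. At 4 h, no filter on low counts called 1 of the 6 lower and 1 higher (1211 and 749 of 23266 tested genes). The GC and length offsets called 1 lower and 3 higher (924 and 524 of 12671). Leaving out the 3 libraries apart in GC called 2 lower and 1 higher (1619 and 1573 of 12806). In the main run 536 and 254 of 12671 were called. With the offsets ELANE was at 0.53 and PRSS57 at 0.12 at 4 h, and MPO at -0.06 at 2 d. Without the 3 libraries MPO was at -0.04 at 2 d, and AZU1 at 0.13 from 4 h to 2 d. Leaving out single libraries moved ELANE at 4 h from -0.42 to 0.33, MPO at 2 d from -0.06 to 0.28, AZU1 from 4 h to 2 d from -0.45 to 0.12, and the count called lower at 2 d from 3 to 5. In these runs from 1648 of 12927 to 2638 of 12892 tested genes were called lower at 2 d, and 2370 of 12671 in the main run. An adjusted p under 0.01 also left 3 of the 6, and the share of all tested genes at that threshold was not counted. The cause of these shifts was not tested.

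Libraries with the same replicate number did not deviate together throughout (correlations from -0.813 to 0.677). The 3 libraries apart in GC carry different replicate numbers, so whether the numbers pair libraries by culture or batch cannot be told from these correlations. With a replicate block 3 of the 6 were called lower at 2 d, as were 1901 of 12671 tested genes. AZU1 was then not called from 2 d to 4 d (edgeR, adjusted p = 0.0826). For the pairs, ratios were centred on the mean of their replicate number, and the count called was 12. Labels were still permuted over all 12 libraries, not within replicate numbers. The offsets with the replicate block gave 3 higher at 4 h (308 of 12671 tested genes), with ELANE at 0.54 and PRSS57 at 0.13, and MPO at -0.04 at 2 d. Genes called lower and higher at 4 h, 536 and 254 in all, were 268 and 113 with the block, 816 and 525 by DESeq2, 924 and 524 with the offsets and 1619 and 1573 without the 3 libraries. Of 1152 list counts under alternatives, 1036 were within 1.5 times.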
